A study of Mus musculus with 18 samples.

Results

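Sox11, Smad1, Klf4, Klf6, Klf7, Myc, Hif1a and Cebpd are transcription factor genes that have been tied to the response of sensory neurons to axon injury. They were taken by gene symbol from the deposited count table, and all 8 were found among its 15730 genes. The table covers 18 RNA-seq libraries of sciatic dorsal root ganglia, the clusters of sensory neuron cell bodies whose axons run in the sciatic nerve, from C57BL/6 mice aged 6 to 8 weeks. Each library was made from the pooled ganglia of 2 mice collected 24 h after surgery, and each of the 6 groups held 3 libraries. SNA_Saline received a sciatic nerve injury with saline, and Sham_Saline a sham operation with saline. SNA_NAC received the sciatic nerve injury with 30 mM N-acetyl-cysteine, an antioxidant. Sham_H202 received the sham operation with 13 mM H2O2, hydrogen peroxide, which is an oxidant. DCA received a spinal cord dorsal column injury, which cuts the central branch of the same neurons, and LAM a laminectomy, the opening of the vertebral bone without the cord lesion. The labels give no sex, and the 24 h time point is the only one that the 8 genes were measured at.

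A neuron of the dorsal root ganglion has a peripheral branch that can regrow after injury and a central branch in the spinal cord that normally does not. Injury of the peripheral branch switches on a set of transcription factors in the cell body, and a central injury does so weakly or not at all. Sox11 is a SoxC-class HMG-box factor of developing neurons, and Smad1 carries signals of the bone morphogenetic protein (BMP) receptors to the nucleus. Klf4, Klf6 and Klf7 belong to the Krüppel-like zinc finger family, in which Klf4 is known to restrain axon growth while Klf6 and Klf7 are known to promote it. Myc is a growth-related basic helix-loop-helix factor, Hif1a encodes the oxygen-regulated subunit of hypoxia-inducible factor 1, and Cebpd encodes a leucine zipper factor of inflammatory and acute-phase responses. HIF-1α is controlled largely through protein stability, and Smad1 through phosphorylation, so RNA level is only one layer of their regulation.

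The total count ranged from 6472476 to 42435331 per library, a ratio of 6.56. All 10 sensory neuron markers were in the table and none was at 0 in any library. Their summed level was 6941 to 11269 CPM, the read counts scaled to library size. Markers of other cells were also present, and none of the summed levels of satellite glia, Schwann cell, macrophage, fibroblast, red blood cell or neutrophil markers separated SNA_Saline from Sham_Saline. The endothelial markers did separate them, at 84.6 to 89.6 CPM in SNA_Saline against 94.8 to 99.4 CPM in Sham_Saline. Skeletal muscle markers spanned 5.43 to 1085 CPM within Sham_Saline alone. No marker gene that the table holds, over all 9 lists, was at 0 in any library. The part of these markers in the results on the 8 genes was not tested. Replicates of Sham_Saline differed most among the groups, with a median SD over all genes of 0.295 log2 CPM, against 0.120 in LAM. Their counts also leaned differently with the GC share of the genes: the slope per SD of GC was −0.044 in replicate 1, 0.43 in replicate 2 and 0.16 in replicate 3. In the other groups the slopes ran from −0.22 (Sham_H202 replicate 3) to 0.25 (DCA replicate 3), so Sham_Saline replicate 2 had the highest.

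The windows from 250 bases before to 50 bases after the RefSeq start are shown for Sox11, Smad1 and Klf6, because these were the genes that set all 6 sciatic injury libraries apart from the other 12. They lie at chr12:27342669-27342968 (minus strand), chr8:79399379-79399678 (minus strand) and chr13:5861239-5861538 (plus strand) in GRCm38, and are written 5′ to 3′ along the gene. Capitals mark every match, on either strand, to any of 7 short motifs: AP-1 TGANTCA, CRE TGACGTCA, E-box CACGTG, C/EBP TTGCNNAA, STAT TTCNNNGAA, GC box GGGCGG and the Krüppel-like factor motif CACCC.
Sox11: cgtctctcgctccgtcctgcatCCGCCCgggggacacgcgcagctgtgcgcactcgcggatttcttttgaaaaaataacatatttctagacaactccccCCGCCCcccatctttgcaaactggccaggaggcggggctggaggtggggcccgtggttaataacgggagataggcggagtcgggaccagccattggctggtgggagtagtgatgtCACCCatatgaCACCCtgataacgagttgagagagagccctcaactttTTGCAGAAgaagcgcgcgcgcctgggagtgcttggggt
Smad1: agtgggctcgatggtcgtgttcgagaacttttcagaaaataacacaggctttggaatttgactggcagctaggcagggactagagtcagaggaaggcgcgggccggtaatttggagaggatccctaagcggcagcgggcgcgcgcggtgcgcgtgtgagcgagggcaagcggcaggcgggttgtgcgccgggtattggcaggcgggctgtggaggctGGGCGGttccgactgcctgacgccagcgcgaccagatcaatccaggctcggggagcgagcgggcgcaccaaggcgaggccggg
Klf6: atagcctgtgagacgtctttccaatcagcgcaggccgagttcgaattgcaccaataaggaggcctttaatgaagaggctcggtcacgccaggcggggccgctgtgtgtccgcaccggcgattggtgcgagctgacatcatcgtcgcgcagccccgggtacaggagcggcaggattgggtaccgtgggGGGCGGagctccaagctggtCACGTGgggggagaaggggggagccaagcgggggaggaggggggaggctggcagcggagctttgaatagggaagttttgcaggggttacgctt
The Sox11 window held 2 GC boxes, 2 CACCC motifs and a C/EBP match 12 bases after the start. In the Smad1 window the only match was a GC box 33 bases before the start. The Klf6 window held a GC box and, 43 bases before the start, the E-box CACGTG that is the site type of Myc. The same E-box was in the windows of Klf4 (182 bases before the start) and Hif1a (135 bases before the start), so it was not particular to Klf6. Windows of 6 of the 8 genes could be read, and no AP-1, CRE or STAT match was found in any of the 6. Over all 32851 promoter windows of the same length, 10.8% held the C/EBP motif, 7.15% the E-box, 35.7% the GC box and 57.5% the CACCC motif. AP-1 was matched in 7.81% of them, CRE in 1.79% and STAT in 8.30%. A match is a string of letters and not a measured binding site.

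Sciatic nerve injury raised Sox11, Smad1, Klf6 and Myc. In edgeR's quasi-likelihood fit to all libraries, 4 of the 8 genes were higher in SNA_Saline than in Sham_Saline at an adjusted p under 0.05, and none was lower. Over the whole table, 2.16% of genes were called higher and 0.572% lower. All 8 differences were positive, with a median of 0.74 on the log2 scale against −0.031 over all genes. These genes are ones that the field already links to injury, so their count is a description and not a sample of the genome. In whole ganglia, a change in RNA per cell and a change in the number of cells of a type cannot be told apart.

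**Figure D1:**
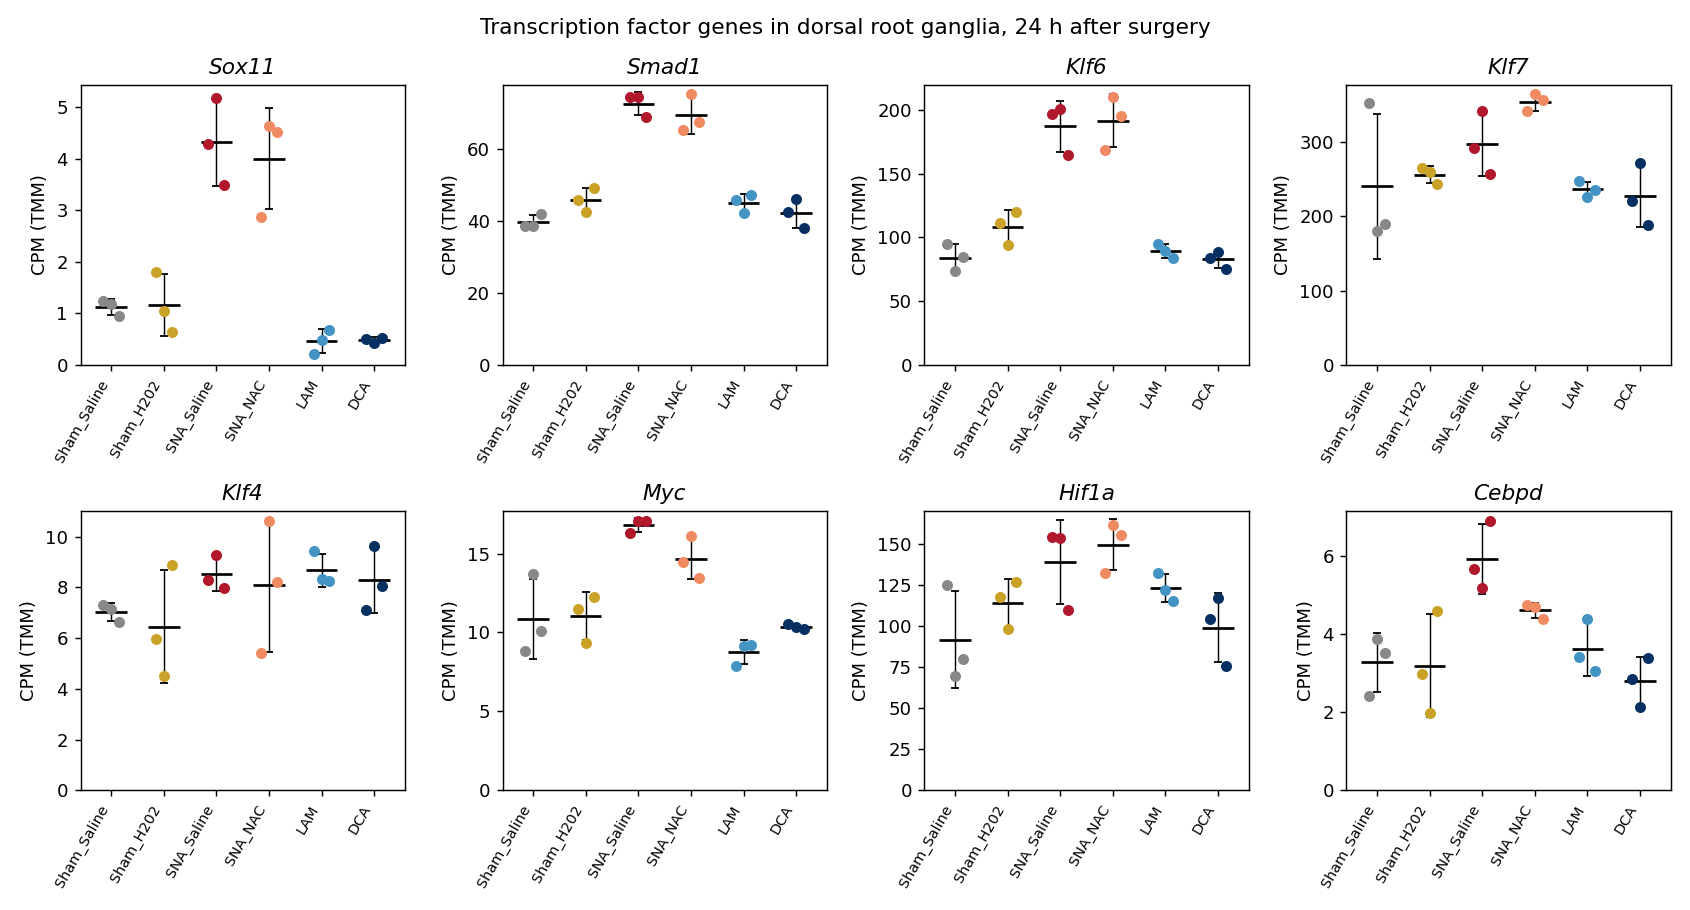
Level of each of the 8 genes in every library, as CPM on a linear vertical axis from 0 with the 6 groups along the horizontal axis; points are single libraries, horizontal bars group means and error bars the SD of 3 libraries. For Sox11, Smad1 and Klf6 the 6 SNA_Saline and SNA_NAC libraries lie above the other 12. For Klf7 and Hif1a, libraries of Sham_Saline, Sham_H202 and DCA lie within the range of the injured groups, and for Hif1a all LAM libraries do as well.

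Sox11 had the largest change and the lowest level of the 8. It stood at 1.24, 1.18 and 0.950 CPM in the Sham_Saline libraries and at 4.29, 5.19 and 3.49 CPM in the SNA_Saline libraries. The groups were far apart, and every injured library was above every sham library. The difference was 1.91 ± 0.30 (log2 fold change ± SE, n = 3 libraries per group; edgeR, adjusted p = 0.00143), a 3.77-fold rise that ranked 30th among the 15730 genes by increase. These levels rest on few reads, since the raw counts were 26, 28 and 14 in Sham_Saline and 65, 48 and 49 in SNA_Saline. The LAM library with the fewest held 2 counts (exact Poisson 95% interval 0.242 to 7.22, which covers counting error only).

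Smad1 rose in every injured library with little spread between replicates. Its level was 38.7, 38.5 and 41.9 CPM in Sham_Saline and 74.7, 74.7 and 69.0 CPM in SNA_Saline. The lowest injured library was well above the highest sham library. The rise was 0.87 ± 0.10 on the log2 scale, or 1.83-fold (edgeR, adjusted p = 6.49e-05), and it kept its call in 29 of 29 alternative fits. These include the fit without a filter and the threshold of 0.10, which could not lose a call.

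Klf6 rose from 94.4, 73.4 and 84.3 CPM in Sham_Saline to 196, 201 and 164 CPM in SNA_Saline. Again the groups did not overlap. The difference was 1.16 ± 0.13 on the log2 scale, 2.23-fold (edgeR, adjusted p = 3.66e-05), the smallest adjusted p of the 8, and it was also called in 29 of 29 alternative fits.

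Myc had a smaller rise. The Sham_Saline libraries stood at 8.82, 13.7 and 10.1 CPM and the SNA_Saline libraries at 16.3, 17.1 and 17.0 CPM. The SNA_Saline libraries were nearly equal, and the spread lay in the Sham_Saline group, whose highest library still fell below them. The difference was 0.62 ± 0.15, 1.54-fold (edgeR, adjusted p = 0.0357). With the replicate number, which is the sequencing lane, as a block, it was 0.63 with an adjusted p of 0.0529, and 11 of 29 alternative fits did not call it.

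Cebpd and Klf4 were higher in every SNA_Saline library than in every Sham_Saline library but did not pass the test. For Cebpd the Sham_Saline values were 2.43, 3.87 and 3.53 CPM and the SNA_Saline values 5.67, 5.19 and 6.91 CPM, a difference of 0.86 ± 0.26 (edgeR, adjusted p = 0.0885). DESeq2 called this difference (adjusted p = 0.0431), and so did the fit that corrects for transcript GC share and length through offsets (0.95, adjusted p = 0.0238). Over all genes, DESeq2 called 863 of 15729 and the offsets 1167 of 15648. Klf4, the growth-restraining member of its family, read 7.29, 7.16 and 6.65 CPM in Sham_Saline and 8.31, 9.30 and 7.98 CPM in SNA_Saline. Its difference of 0.27 ± 0.23 had a 95% interval of −0.22 to 0.77 (edgeR, adjusted p = 0.472). In all, 6 of the 8 genes were higher in all 3 SNA_Saline libraries than in all 3 Sham_Saline libraries, against 10.3% of genes in the table.

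Klf7 and Hif1a did not pass the test, and in both the highest Sham_Saline library was replicate 1. Klf7 read 353, 180 and 189 CPM in the Sham_Saline libraries and 293, 342 and 257 CPM in the SNA_Saline libraries. Sham_Saline replicate 1 was thus above every SNA_Saline library, while replicates 2 and 3 were below all of them. Over all 3 the difference was 0.30 ± 0.20 (edgeR, adjusted p = 0.348), and without that replicate it was 0.69 (adjusted p = 0.00876). Hif1a stood at 125, 69.8 and 79.9 CPM in Sham_Saline or, in SNA_Saline, 154, 153 and 110 CPM. Of the Sham_Saline libraries, only replicate 1 reached into the SNA_Saline range. That library also lay within the LAM range of 115 to 132 CPM, and replicates 2 and 3 were below every LAM library. The Hif1a difference was 0.60 ± 0.20 (edgeR, adjusted p = 0.124), and 0.89 without Sham_Saline replicate 1 (adjusted p = 0.0105). Over the 18 fits that leave out 1 library, Klf7 was at 0.13 to 0.69 and Hif1a at 0.44 to 0.89. Each was called in 1 of them, the fit without Sham_Saline replicate 1. That fit called 2548 of 15730 genes, 1268 of them lower, against 430 in the reported fit. It keeps Sham_Saline replicates 2 and 3, whose GC slopes were 0.43 and 0.16, and drops the one at −0.044. In a fit with offsets for GC share and length, which keeps every library, Klf7 differed by 0.26 (adjusted p = 0.0467) and Hif1a by 0.41 (adjusted p = 0.00830). These 2 genes have transcripts of low GC share, 45.3% for Klf7 and 41.3% for Hif1a, where the median gene of the table has 49.57%. Klf6, at 42.4%, was called with and without the offsets.

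**Figure D2:**
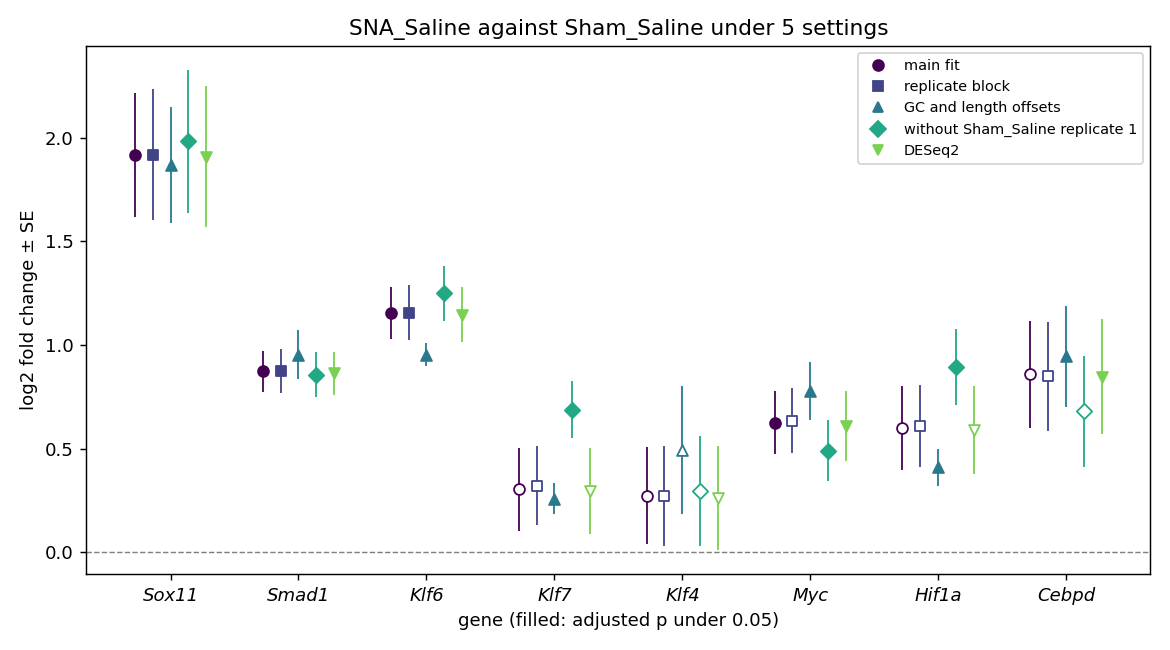
Log2 fold change of SNA_Saline over Sham_Saline with its SE (vertical axis) for each of the 8 genes (horizontal axis) under 5 settings; filled points passed an adjusted p of 0.05. Sox11, Smad1 and Klf6 are filled under all 5, while Klf7 and Hif1a are filled only with the GC and length offsets or without Sham_Saline replicate 1.

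Each gene was placed on GRCm38 to see which reads it could share. Sox11 (chromosome 12, 27334264 to 27342574, minus strand), Smad1 (chromosome 8, 79338395 to 79399518, minus strand), Klf4 (chromosome 4, 55527143 to 55532466, minus strand), Klf6 (chromosome 13, 5861482 to 5870394, plus strand) and Myc (chromosome 15, 61985391 to 61990374, plus strand) overlap no other annotated gene. Klf7 (chromosome 1, 64029447 to 64122282, minus strand) shares exonic sequence with the lincRNA Gm26649 on the opposite strand, which itself reached 37.4 to 75.4 FPKM (read counts scaled to transcript length and library size), and with the antisense gene Gm13748, at 0.731 to 5.95 FPKM. Hif1a (chromosome 12, 73901375 to 73947530, plus strand) overlaps the antisense gene Gm15283, at 1.87 to 6.93 FPKM, and the same-strand gene Gm49321. Gm49321 is among neither the counted genes nor the FPKM features. Cebpd (chromosome 16, 15887286 to 15891031, plus strand) overlaps Spidr on the opposite strand, which stood at 7.63 ± 0.99 CPM in Sham_Saline and 9.14 ± 0.72 CPM in SNA_Saline (SD, n = 3; edgeR, adjusted p = 0.291). The library kit keeps strand, but whether the counting used it is not given in the sources used here, so reads of Klf7, Hif1a and Cebpd that fall in the shared stretches may be uncertain.

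On the length-corrected FPKM scale, the order of the 8 genes in Sham_Saline was Klf7 (31.2), Klf6 (20.0), Hif1a (15.6), Smad1 (6.86), Myc (4.01), Cebpd (2.79), Klf4 (2.32) and Sox11 (0.560). In SNA_Saline, Klf6 (43.4) was above Klf7 (37.5), followed by Hif1a (23.04), Smad1 (12.3), Myc (6.06), Cebpd (4.93), Klf4 (2.74) and Sox11 (2.10). Sox11 therefore had the largest fold rise and still the lowest mean level of the set after injury.

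Sox11, Smad1 and Klf6 were also raised when the nerve injury was given with N-acetyl-cysteine. Against Sham_Saline, 3 of the 8 were called higher in SNA_NAC, where 2.47% of all genes were, and none lower. All 8 differences were again positive, with a median of 0.63 against −0.014 over all genes. Sox11 read 2.87, 4.63 and 4.52 CPM in SNA_NAC, and its difference from Sham_Saline was 1.80 ± 0.29 (edgeR, adjusted p = 0.00191). Smad1 read 65.4, 75.6 and 67.6 CPM, a difference of 0.81 ± 0.10 (edgeR, adjusted p = 0.000124). In a fit to these 2 groups alone, with far fewer libraries, the adjusted p of Smad1 was 0.0507. Klf6 read 169, 210 and 196 CPM, a difference of 1.19 ± 0.12 (edgeR, adjusted p = 2.91e-05). The groups SNA_Saline and SNA_NAC were compared here with the same Sham_Saline libraries. Neutrophil markers summed to 206 to 270 CPM in SNA_NAC against 303 to 521 CPM in Sham_Saline, with 5 of 5 genes lower and 1 of them, Camp, called. The other 8 marker sums overlapped between these groups, and the part of the markers was not tested.

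The other 5 did not pass the test in SNA_NAC. Hif1a read 132, 161 and 155 CPM, above all 3 Sham_Saline libraries, as 11.5% of genes were (0.71 ± 0.20, edgeR, adjusted p = 0.0660). Klf7 read 342, 365 and 356 CPM (0.56 ± 0.20, adjusted p = 0.115). Without Sham_Saline replicate 1 both genes were called, Hif1a at 1.00 (adjusted p = 0.00236) and Klf7 at 0.94 (adjusted p = 0.000626). That fit called 5861 of 15730 genes, against 522 in the reported fit. Over the 18 fits that leave out 1 library, Hif1a was at 0.54 to 1.00 and called in 2. Klf7 was at 0.38 to 0.94 and called in 1. With the GC and length offsets Hif1a and Klf7 were called too, at 0.44 and 0.34, together with Myc. The offsets called 1220 of 15648 genes. Myc read 14.5, 16.1 and 13.5 CPM in SNA_NAC (0.43 ± 0.15, edgeR, adjusted p = 0.110), so its lowest library was just under the highest Sham_Saline library. Cebpd read 4.74, 4.69 and 4.40 CPM, also above all 3 Sham_Saline libraries (0.49 ± 0.25, adjusted p = 0.207). Klf4 read 5.40, 10.6 and 8.21 CPM (0.18 ± 0.23, adjusted p = 0.607).

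Compared directly with SNA_Saline, SNA_NAC differed in none of the 8 genes by edgeR (adjusted p = 1.00 for each), nor at an unadjusted p under 0.05, nor by DESeq2 or limma. Over all genes, 0% were called by edgeR and 0 by DESeq2 or by limma on genes with a mean FPKM of at least 0.1. Limma without that filter called 8 of 45904 features, none of them among the 8 transcription factors. An unadjusted edgeR p under 0.05 was found for 2.00% of all genes, which is 314 genes. The 95% intervals show what these libraries could resolve. For Smad1 the difference was −0.067 with an interval of −0.27 to 0.14, and for Klf6 it was 0.034 with an interval of −0.23 to 0.29. Sox11 was measured less closely, at −0.11 with an interval of −0.68 to 0.45. Myc and Cebpd were lower in every SNA_NAC library than in every SNA_Saline library, as 5.63% of genes were. The difference was −0.20 for Myc (interval −0.51 to 0.12) and −0.37 for Cebpd (interval −0.90 to 0.16), so for neither does the interval exclude 0. Of the 9 marker lists, 2 also had lower sums in every SNA_NAC library. Neutrophil markers summed to 206 to 270 CPM against 309 to 498 CPM in SNA_Saline, and Schwann cell markers to 7337 to 7474 CPM against 7919 to 8544 CPM, with 5 of 5 genes lower and none called in each list. Their part in these differences was not tested.

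**Figure D3:**
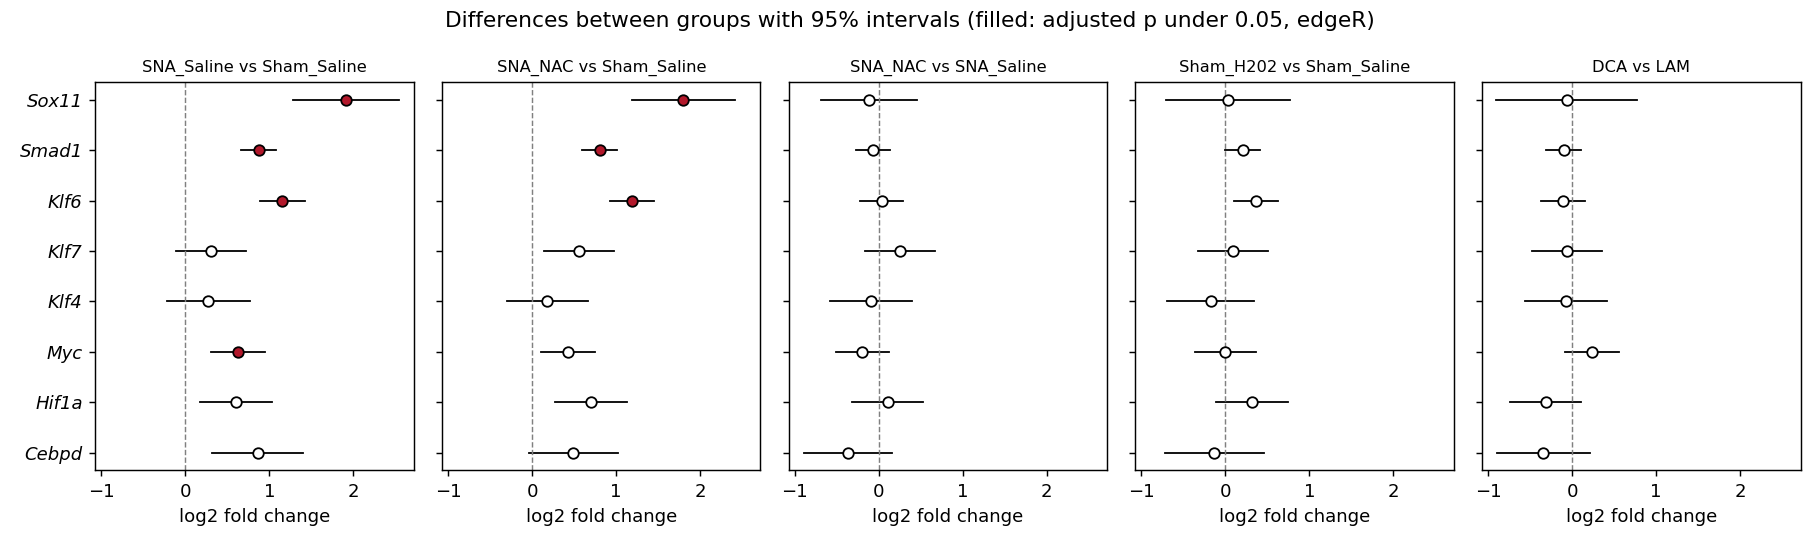
Log2 fold change with its 95% confidence interval (horizontal axis) for each of the 8 genes (vertical axis) in 5 comparisons; filled points passed an adjusted p of 0.05. The Sox11, Smad1 and Klf6 intervals lie above 0 in both comparisons of injured with Sham_Saline libraries, and all 8 intervals include 0 for SNA_NAC against SNA_Saline and for DCA against LAM.

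With hydrogen peroxide at the sham operation, none of the 8 genes passed the test by edgeR, DESeq2 or limma. The edgeR adjusted p was 0.449 or more for each. Over all genes, edgeR called 0%, DESeq2 4 and limma on log2(FPKM + 1) 2. At an unadjusted edgeR p under 0.05 there was 1 of the 8, against 9.15% of all genes. That gene was Klf6, at 111, 93.9 and 120 CPM in Sham_H202 against 94.4, 73.4 and 84.3 CPM in Sham_Saline. Its difference was 0.36 with an interval of 0.097 to 0.62 (edgeR, adjusted p = 0.449), and the groups overlapped. Smad1, at 45.9, 42.6 and 49.3 CPM, was above Sham_Saline in every library by a narrow margin, as 2.16% of genes were. Its difference was 0.21 with an interval of −0.0047 to 0.42. Sox11 read 1.81, 1.04 and 0.636 CPM, from 14, 23 and 4 counts, and its interval of −0.71 to 0.77 leaves changes of either sign unresolved at this depth. The median over the 8 genes was 0.059, near the −0.020 of all genes. These Sham_H202 libraries include the 2 with the lowest totals of the series.

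After dorsal column injury, 0 of the 8 genes passed the test against LAM by edgeR, DESeq2 or limma. Over all genes, edgeR called 0%, limma 0 and DESeq2 2. None of the 8 had an unadjusted edgeR p under 0.05, as 5.04% of all genes did. In DCA, 7 of the 8 differences were negative, with a median of −0.085 against −0.0038 over all genes. Of the 9 marker sums, 3 did not overlap between DCA and LAM. Sensory neuron markers were higher in DCA (8017 to 9024 against 7424 to 7943 CPM), and satellite glia (1704 to 1759 against 1763 to 1884 CPM) and fibroblast markers (833 to 931 against 955 to 1086 CPM) were lower. Their part in these values was not tested. Smad1 read 46.0, 42.4 and 47.2 CPM in LAM and 42.6, 46.2 and 38.0 CPM in DCA, a difference of −0.098 with an interval of −0.31 to 0.11. Klf6 read 94.4, 89.1 and 83.7 CPM in LAM and 84.1, 88.5 and 75.5 CPM in DCA, a difference of −0.11 with an interval of −0.37 to 0.16. For both, the interval stops well short of the rises seen after sciatic injury. Sox11 read 0.207, 0.488 and 0.671 CPM in LAM and 0.490, 0.427 and 0.524 CPM in DCA. These values come from 2 to 20 counts, and the interval of −0.90 to 0.77 is wide.

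Myc was the only one of the 8 with a positive difference. It read 7.87, 9.16 and 9.20 CPM in LAM and 10.5, 10.3 and 10.2 CPM in DCA, without overlap, as 11.9% of genes were (0.24, interval −0.088 to 0.56; edgeR, adjusted p = 0.624). Hif1a had 132, 122 and 115 CPM in LAM and 104, 117 and 75.8 CPM in DCA, a difference of −0.32 ± 0.20 (adjusted p = 0.624). Cebpd was −0.35 ± 0.26, Klf4 −0.071 ± 0.23 and Klf7 −0.060 ± 0.20.

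The difference between the peripheral and the central response was tested as the sciatic contrast minus the dorsal column contrast. Smad1 and Klf6 passed, with differences of 0.97 ± 0.14 (edgeR, adjusted p = 0.00147) and 1.26 ± 0.18 (edgeR, adjusted p = 0.00111). Of all genes, 1.23% were called higher in this test. Sox11 had the largest difference, 1.98 ± 0.50, with an adjusted p of 0.0572, and 7 of 28 alternative fits called it. Cebpd (1.20 ± 0.37, adjusted p = 0.0837) and Hif1a (0.92 ± 0.29, adjusted p = 0.0852) also missed the threshold. Both passed by DESeq2, with adjusted p of 0.0342 for Cebpd and 0.0328 for Hif1a, and with the GC and length offsets. Sox11 passed by DESeq2 as well (adjusted p = 0.0169). Over all genes, DESeq2 called 1723 of 13899 in this test and the offsets 797 of 15648, against 254 of 15730 in the reported fit. Myc was at 0.39 ± 0.22 (edgeR, adjusted p = 0.223), so a larger response to sciatic than to dorsal column injury was not shown for it. Klf7 (0.36) and Klf4 (0.34) had adjusted p of 0.375 and 0.477. The sciatic and dorsal column injuries have different control operations.

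These control operations were set against each other. None of the 8 genes differed between Sham_Saline and LAM by edgeR, DESeq2 or limma. Over all genes, edgeR called 0.0699%, which is 11 genes, limma on log2(FPKM + 1) called 4, and DESeq2 called 1141 of the 13899 genes to which it gave an adjusted p. At an unadjusted p under 0.05 in edgeR there was 1, against 30.3% of all genes. That gene was Sox11, whose Sham_Saline libraries were all above the LAM libraries (1.14 ± 0.36, edgeR, adjusted p = 0.104), as 16.4% of genes were. Smad1 and Klf4 were lower in every Sham_Saline library than in every LAM library, by −0.19 and −0.29 on the log2 scale, as 14.2% of genes were. The endothelial marker sum was higher in Sham_Saline, at 94.8 to 99.4 CPM against 75.4 to 91.9 CPM, and its part was not tested. Without Sham_Saline replicate 1, Myc was called higher in Sham_Saline (0.44, edgeR, adjusted p = 0.0360) and Hif1a lower (−0.72, adjusted p = 0.0236). That fit called 5009 of 15730 genes, 3091 higher and 1918 lower, so these calls were not particular to Myc and Hif1a.

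Across all 6 groups, Sox11, Smad1 and Klf6 had every sciatic injury library above every other library. The lowest of the 6 injured libraries and the highest of the other 12 were 2.87 and 1.81 CPM for Sox11, 65.4 and 49.3 CPM for Smad1, and 164 and 120 CPM for Klf6. Of all genes, 2.19% had this separation. Myc missed it narrowly, at 13.5 CPM in an SNA_NAC library against 13.7 CPM in Sham_Saline replicate 2, and Cebpd did so at 4.40 against 4.61 CPM. For Klf4, Klf7 and Hif1a the ranges overlapped broadly.

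The members were next set within their families and pathways. The count table holds 14 Klf genes, and by FPKM in Sham_Saline Klf7 and Klf6 ranked 1 and 2 while Klf4 ranked 11. Of the 11 Klf genes other than Klf4, Klf6 and Klf7, 1 rose after sciatic injury and none fell. This was Klf10, a TGF-β-inducible member, which rose by 0.56 ± 0.12 (edgeR, adjusted p = 0.0192), from 20.9, 19.5 and 23.8 CPM to 33.3, 30.2 and 30.9 CPM. The median of these 11 was −0.021, close to that of all genes.

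**Figure D4:**
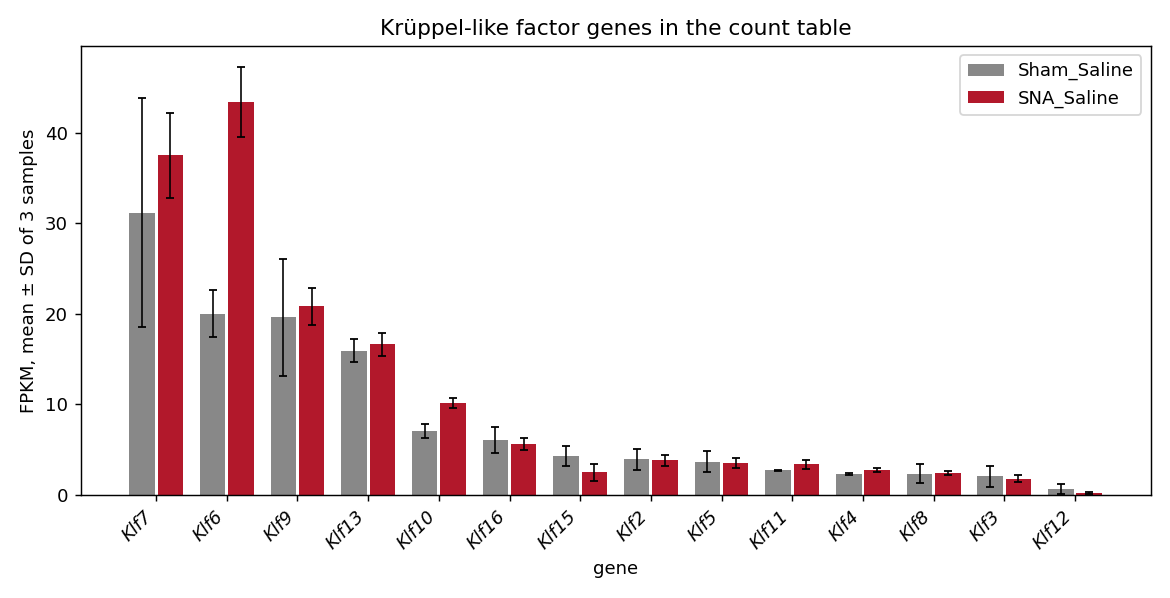
FPKM of the 14 Klf genes of the count table in Sham_Saline and SNA_Saline (vertical axis), bars being means and error bars the SD of 3 libraries each. Klf6 goes from 20.0 to 43.4 FPKM, and the wide Sham_Saline error bar of Klf7 comes with 1 library that lay above the other 2.

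Of the 12 measured Sox genes other than Sox11, 1 rose after sciatic injury and none fell, with a median of −0.019. Sox9, a SoxE factor of glia, rose by 0.96 ± 0.23 (edgeR, adjusted p = 0.0338), from 1.57, 2.02 and 1.97 CPM to 4.49, 3.03 and 3.21 CPM. It was not called in 11 of 29 alternative fits, among them the replicate block (adjusted p = 0.0665). In SNA_NAC it was 0.48 above Sham_Saline (adjusted p = 0.178). The direct difference of SNA_NAC from SNA_Saline, −0.47, was not called.

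Of the 21 other genes of the BMP and Smad pathway around Smad1, 1 rose and 1 fell after sciatic injury. Their median was −0.27. Acvr1, a type I BMP receptor that can phosphorylate Smad1, rose by 0.78 ± 0.11 (edgeR, adjusted p = 0.000542), from 24.3, 20.8 and 19.3 CPM to 40.7, 37.4 and 32.6 CPM. Nog, the gene of the secreted BMP antagonist noggin, fell by 1.01 on the log2 scale (SE 0.25, adjusted p = 0.0386), and with the replicate block its adjusted p was 0.0642. The fall of Nog was not called in 18 of 29 alternative fits. In SNA_NAC against Sham_Saline, where 0.846% of all genes were called lower, Acvr1 rose by 0.86 and 3 of the 21 fell: Nog (−1.18, edgeR, adjusted p = 0.0112), the inhibitory Smad gene Smad7 (−0.94, adjusted p = 0.0143) and Id1 (−1.07, adjusted p = 0.0145), a classical target of BMP signalling. In SNA_Saline, Smad7 (−0.49, adjusted p = 0.188) and Id1 (−0.78, adjusted p = 0.0872) did not pass. Set directly against SNA_Saline, SNA_NAC differed by −0.16 for Nog, −0.45 for Smad7 and −0.29 for Id1, none of them called. The SNA_NAC calls against Sham_Saline were absent in 6, 7 and 5 of 29 alternative fits for Nog, Smad7 and Id1.

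Relatives and targets of Myc moved in part. Of 11 Myc network genes, Mycn rose by 0.64 ± 0.16 (edgeR, adjusted p = 0.0421, and 0.0716 with the replicate block) and none fell. The Mycn rise was not called in 14 of 29 alternative fits. The network's median was −0.069. Among 12 Myc target genes, 2 rose and none fell, with a median of 0.27. Odc1, which encodes the rate-limiting enzyme of polyamine synthesis, rose by 0.85 ± 0.09 (edgeR, adjusted p = 3.48e-05). Its values went from 93.5, 103 and 101 CPM to 199, 173 and 166 CPM, and it was called in 29 of 29 alternative fits. Nop58, a nucleolar ribonucleoprotein, rose by 0.67 ± 0.15 (adjusted p = 0.0247, and 0.0515 with the replicate block), and 6 of 29 alternative fits did not call it. Ddx21, a nucleolar helicase, passed in SNA_NAC against Sham_Saline (0.62 ± 0.14, adjusted p = 0.0170), and stood at 0.50 in SNA_Saline (adjusted p = 0.0598). Its direct difference of SNA_NAC from SNA_Saline, 0.12, was not called.

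Around Hif1a, no gene was called. Of 9 genes of the HIF system 0 passed after sciatic injury by edgeR, and the median was −0.13. The 2 most abundant, the related subunit gene Epas1 and the asparaginyl hydroxylase gene Hif1an, were at −0.13 ± 0.10 and −0.22 ± 0.14. Of 11 measured HIF target genes 0 passed, with a median of 0.012. The 2 most abundant of these were Ndrg1, at 0.012 ± 0.12, and the glycolytic gene Pgk1, at 0.20 ± 0.09. The same held in SNA_NAC, where 0 of 9 and 0 of 11 were called. Among the 4 C/EBP relatives of Cebpd none was called, and the 2 most abundant, Cebpg and Ddit3, were at 0.34 ± 0.12 and −0.085 ± 0.21.

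Of 7 measured other transcription factors of the injury response, 3 rose after sciatic injury and none fell, with a median of 0.50. Atf3, a stress-induced factor widely used as a marker of axon injury, rose by 2.82 ± 0.19 (edgeR, adjusted p = 1.55e-07), from 55.9, 72.6 and 59.4 CPM to 450, 420 and 462 CPM. Jun rose by 1.16 ± 0.12 (adjusted p = 2.61e-05), from 57.9, 78.5 and 63.3 CPM to 152, 151 and 143 CPM. Nfil3, a basic leucine zipper repressor, rose by 1.05 ± 0.17 (adjusted p = 0.00155). Atf3 was also higher in Sham_Saline than in LAM (2.17 ± 0.19, edgeR, adjusted p = 4.09e-05), where LAM libraries read 12.2, 12.4 and 16.9 CPM.

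Of 9 measured immediate early genes, and likewise of 11 glucocorticoid-responsive genes, only Dusp1 was called, a phosphatase gene that is on both lists. It rose by 0.71 ± 0.12 (edgeR, adjusted p = 0.00190), and the medians of the lists were 0.097 and −0.087.

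For each of the 4 genes called after sciatic injury, the genes with the most similar pattern were read from the correlation of log2 CPM over the 18 libraries, among 11582 genes for Sox11 and 11581 for the others. For Sox11 these were Igfbp3 (r = 0.974), Csf1 (0.960) and Sema6a (0.953), which encode an insulin-like growth factor binding protein, a macrophage growth factor and a transmembrane semaphorin. For Smad1 they were Uap1 (0.982), Serpinb1a (0.981) and Ugdh (0.978), of which Uap1 and Ugdh are enzymes of nucleotide sugar synthesis. For Klf6 they were Rhoq (0.994), Riok3 (0.990) and AA987161 (0.988), and for Myc Tmem159 (0.945), Pxdc1 (0.940) and Stmn4 (0.939). The points share their 6 groups and their libraries, so each r is a description with no test. All 12 of these genes were themselves called higher in SNA_Saline than in Sham_Saline, as 2.16% of all genes were. They were picked for following members called in that comparison, so their calls add no separate evidence.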

How the data were processed

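Single-end RNA-seq libraries from a stranded mRNA kit were prepared from the ganglia, per the labels' protocols. The submitters' processing notes list TopHat2 2.0.12, Bowtie2 2.2.3, SAMtools 0.1.19, HTSeq 0.6.0, edgeR 3.8.6 and the mm10 build. The authors deposited raw counts of 15730 genes, and FPKM values of 45904 features, for 18 samples. From the counts, edgeR 4.0.16 was fitted to all samples (TMM, filterByExpr, quasi-likelihood test, Benjamini-Hochberg over all genes, threshold 0.05), and no gene was filtered out. CPM values follow TMM scaling. Log2 fold changes carry SEs from the F statistic and 95% intervals.

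Groups came from the sample titles. The replicate number is also the sequencing lane, per the labels, so it was used as a block in an alternative fit. Of 18 correlations between deviations of same-numbered samples, ranging from −0.65 to 0.56, 8 were above 0.1. Whether pools came from separate mice is not stated beyond the 2 animals per sample, so the p-values measure the spread between these samples. With 3 against 3 an exact permutation test cannot go below 0.1, so none was used. Replicate counts differed by more than sampling noise in all 18 pairs (lowest chi-square per degree of freedom 3.98).

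The members and lists were chosen with earlier results of these data known. The text names all members, up to 4 called genes of each list in any of 7 comparisons or, with none called, the 2 of highest mean count, and the 3 most correlated genes (mean CPM of at least 5) of each called member. The lists were Klf, Sox, BMP and Smad, C/EBP, Myc network and targets, HIF system and targets, other injury factors, immediate early and glucocorticoid-responsive genes. Alternatives were DESeq2 1.42.0, other filters, fits to fewer groups, GC and length offsets (splines of 5 degrees of freedom, longest GENCODE transcript), limma 3.58.1 on log2(FPKM + 1) or log2(FPKM + 0.1), and leaving out each sample. RefSeq promoters (GRCm38.p6) matched 6 of 8 symbols.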

Additional observations from a re-analysis of the deposited data

Results flagged for a closer look

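The sciatic response differed from the dorsal column response in 9 of the named genes by the test of that difference itself in edgeR, where 1.61% of all genes were called. The list genes among them were named because they had passed in at least 1 comparison, this one included, so the count of 9 is a description. The differences on the log2 scale were 0.97 for Smad1 and 1.26 for Klf6 among the 8 transcription factors. Among the list genes they were 0.74 for Klf10 (adjusted p = 0.0430), 0.80 for Acvr1 (adjusted p = 0.0222), 0.85 for Odc1 (adjusted p = 0.00229), 0.94 for Nop58 (adjusted p = 0.0413), 1.68 for Atf3 (adjusted p = 0.00229), 1.18 for Jun (adjusted p = 0.00155) and 0.71 for Dusp1 (adjusted p = 0.0386). Of the 29 alternative fits, 29 kept the call for Smad1, Klf6, Odc1, Atf3 and Jun, 23 for Acvr1, 14 for Dusp1, 12 for Klf10 and 11 for Nop58. The subtraction for Atf3 includes control groups that differed by 2.17 between Sham_Saline and LAM.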

How the results depend on the processing

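Over 29 alternative settings, 5677 values of the named genes were recomputed, of which 5402 counted as unchanged, 187 lost the call, 86 gained it and 2 reversed. The unchanged values kept their side of the threshold. Of these, 187 changed sign within 1 SE of 0, and the rest kept their direction. Leaving the filter out repeated the reported fit, since no gene was filtered out, and the threshold of 0.10 could only add calls. Neither setting could lose a call. The reversed values were the peripheral minus central difference of Smad7, which was called in none of the 29 alternatives and was −0.34 in the reported fit, at 0.34 with GC and length offsets and 0.31 with those offsets and the replicate block; the cause was not tested. With the GC and length offsets the number of the 8 genes called was 7 after sciatic injury (4 without), 6 in SNA_NAC against Sham_Saline (3 without) and 5 in the difference between the injuries (2 without). Offsets together with the replicate block gave 7, 6 and 4. Of 15648 genes, the offsets alone called 1167, 1220 and 797, and with the block 1014, 1128 and 636. The replicate block alone gave 3, 3 and 2 of the 8 genes, and over all genes 320 calls after sciatic injury in place of 430. Besides Myc, Sox9, Nog, Mycn and Nop58 after sciatic injury, the block ended the calls of Klf10 and Dusp1 in SNA_NAC (adjusted p of 0.0671 and 0.0628) and of Klf10, Nop58 and Dusp1 in the difference between the injuries (0.0707, 0.0768 and 0.0690). For the difference between the injuries DESeq2 called 5, where it called 1723 of 13899 genes. A threshold of 0.10 gave 5, where 2398 of 15730 genes passed it. Leaving out 1 library at a time gave 3 to 6 after sciatic injury, 3 to 5 in SNA_NAC, 2 to 6 in the difference between the injuries, 0 to 2 for Sham_Saline against LAM, and 0 in the other comparisons. The upper ends of 5, 6 and 2 came without Sham_Saline replicate 1, where 5861, 4600 and 5009 of 15730 genes were called in these comparisons. In the difference between the injuries, 4 of the 8 were called without Sham_H202 replicate 3, where 1209 of 15730 genes were. Over all genes, calls after sciatic injury were 863 by DESeq2, 1167 with the offsets, 65 in a fit to the 2 groups alone, 2548 without Sham_Saline replicate 1, 727 without Sham_H202 replicate 3, and 174, 207 and 233 without SNA_Saline replicate 1, SNA_Saline replicate 2 and Sham_Saline replicate 2. A minimum of 10 counts in every sample removed Sox11, so that setting gives no value for it. Depth limits Sox11 most, with as few as 2 counts in a library.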
